A study of Danio rerio with 61 samples.

Results

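Cardiomyocytes contract when calcium enters the cytosol and relax when it is pumped out again, and the genes described here encode the pumps, channels, exchangers and buffers of that cycle together with a sodium channel and a sodium pump. The list held 10 symbols, chosen by function: atp2a2a, atp2a2b, ryr2a, ryr2b, casq2, slc8a1a, cacna1c, scn5lab, pvalb2 and atp1a1a.1. Of these, 9 were present as symbols in the deposited log2 table of 16890 genes, and all 9 passed the filter on low counts, a level of 1 CPM (counts scaled to the library size) reached in any library. The gene pvalb2 reached that level only at 7 dpci (days post cryo-injury). The symbol ryr2a was not found. A row described in the deposited tables as ryanodine receptor 2a carries only a gene ID and was examined after the data had been seen. It held 26 counts over 18 of the 61 libraries, at most 4 in any of them, so ryr2b was the only ryanodine receptor 2 copy that could be followed.

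Messenger RNA was measured in whole ventricles of single adult zebrafish of 7 wild-type strains, age matched within experiments according to the methods of the study: AB, KCL (a strain that came from King's College London), NA (Nadia), SAT (Sanger AB Tübingen), TL (Tupfel long fin), TU (Tübingen) and WIK (Wild India Kolkata). The fish were uninjured (21 libraries, 3 per strain), or were collected 1 day (19 libraries) or 7 days (21 libraries) after the ventricle tip had been cryo-injured with a cooled copper probe, a time given as days post cryo-injury (dpci). Each injured group held 3 fish, except SAT and TU at 1 dpci with 2 fish each. The labels give no transgene or drug for any group. Injured hearts were compared with unoperated hearts, so that the surgery and the cryo-injury cannot be told apart here. Counts came from the 3′ end of each mRNA (QuantSeq) without dependence on transcript length. Whether the 3′ ends of different genes were counted equally well was not checked, so comparisons of level between genes are approximate.

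In the vertebrate heart, an action potential opens sodium channels and then L-type calcium channels, and the calcium that enters opens ryanodine receptors in the sarcoplasmic reticulum, the internal store of the muscle cell. Calsequestrin holds calcium inside this store. For relaxation, the SERCA2 pumps return calcium to the store, the sodium-calcium exchanger removes it from the cell, and the sodium-potassium pump keeps up the sodium gradient on which the exchanger runs. Parvalbumins are soluble calcium buffers best known from fast skeletal muscle.

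Totals per library ranged from 2943684 to 5538019 counts, of which between 991472 and 2146167 fell on genes not encoded by mitochondria. The title was used for 6 libraries whose labelled time differed from it. They were SAT and TU libraries titled uninjured or 7 dpci, and TL and WIK libraries titled 1 dpci. When uninjured libraries were matched by strain with the 7 dpci groups, all 3 of NA were most similar to TU and all 3 of TU to NA. The stage comparisons and the comparison among strains were therefore also run without NA and TU, and these values are given where a call changed. Whether the uninjured or the 7 dpci names are in doubt was not settled here, and libraries at 1 dpci were not matched. The values of NA and TU as single strains, and of NA against SAT, rest on those names. The myosin light chain gene myl7, which marks cardiomyocytes, was measured beside the members. Its level ran from 3950 to 10543 CPM in uninjured ventricles (median 7318), from 1874 to 6111 CPM at 1 dpci (median 3486) and from 3182 to 6993 CPM at 7 dpci (median 5149). It was lower at 1 dpci than in uninjured fish in all 7 strains, with no overlap between the fish of any strain. The summed level of 12 other cardiomyocyte markers, led by cmlc1, tpm4a and mybpc3, moved the same way, with medians of 27784, 17875 and 24405 CPM. Leukocyte markers, led by spi1b, coro1a and mpeg1.1, had summed medians of 21.6, 138 and 46.8 CPM, and fibroblast markers, led by fn1b, col1a2 and col5a1, of 241, 563 and 965 CPM. Summed endothelial markers (cdh5, vwf and egfl7 highest) stayed between 151 and 164 CPM in the median, and erythroid markers (hbba1 and hbaa1 highest) between 6678 and 6909 CPM. Atrial markers (myh6, smtnl1 and nr2f1a) had summed medians of 197, 225 and 168 CPM, and smooth muscle markers of the bulbus (tagln, acta2 and myh11a highest) of 71.3, 99.0 and 188 CPM. In whole ventricles, fewer cardiomyocytes and less RNA of a gene per cardiomyocyte cannot be told apart.

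Levels of the members in uninjured ventricles covered a wide range. The SERCA2 pump gene atp2a2a stood highest, with a median of 1240 CPM. The release channel ryr2b (358 CPM), the exchanger slc8a1a (353 CPM), the sodium pump subunit atp1a1a.1 (308 CPM) and the store buffer casq2 (291 CPM) lay close together. Far lower were the sodium channel scn5lab (31.2 CPM), the L-type calcium channel cacna1c (7.72 CPM) and the second SERCA2 copy atp2a2b (6.67 CPM), and pvalb2 had a median of 0 counts.

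**Figure D1:**
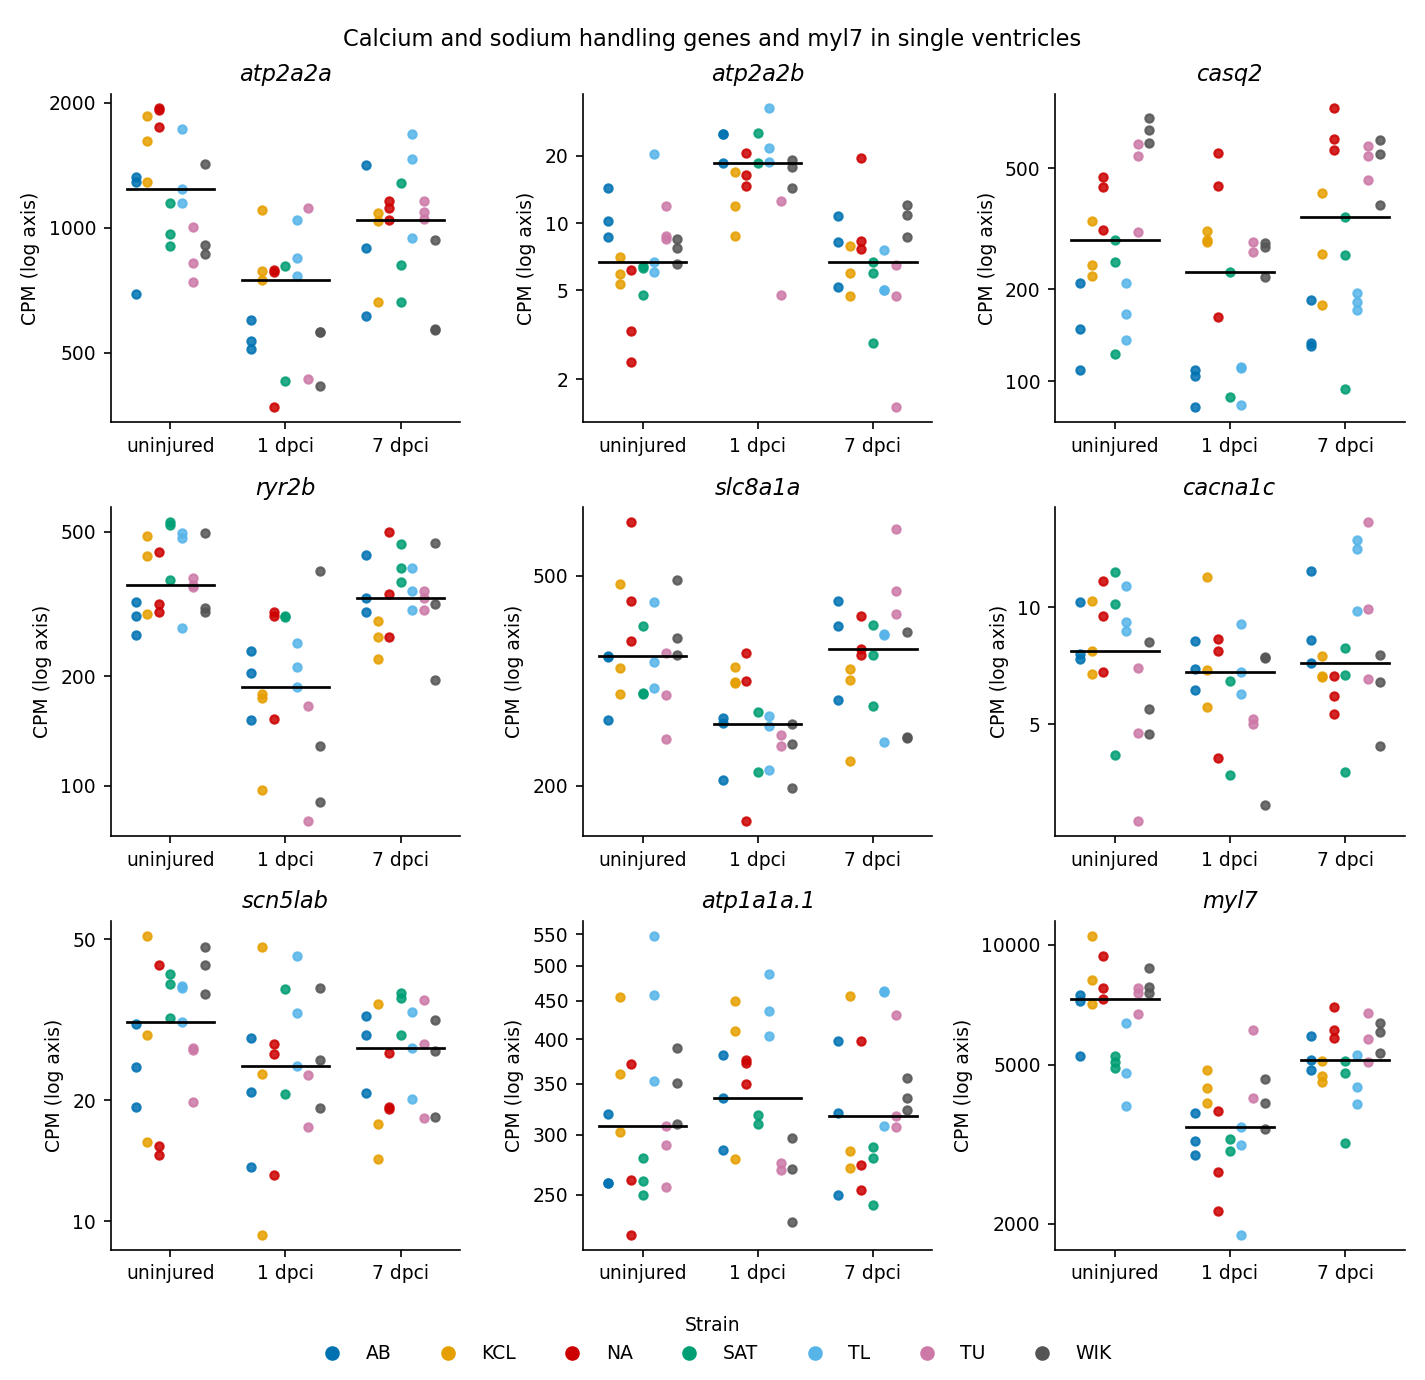
Level in CPM (log axis) of 8 members and myl7 in each of the 61 ventricles, by stage, coloured by strain, with a line at the median. At 1 dpci atp2a2a, ryr2b and myl7 lie lower (medians 748, 187 and 3486 CPM) and atp2a2b lies higher (median 18.6 CPM) than in uninjured fish, while atp1a1a.1 keeps a similar range throughout.

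The first comparison asks what happens to calcium handling 1 day after injury. Averaged over the 7 strains, the main SERCA2 pump gene atp2a2a, the release channel ryr2b, the store buffer casq2 and the exchanger slc8a1a fell, and the second SERCA2 copy atp2a2b rose. Of the 9 members, 5 passed an adjusted p of 0.05 in the quasi-likelihood test of edgeR, adjusted by Benjamini-Hochberg across the 16890 genes, 4 of them lower (atp2a2a, ryr2b, casq2 and slc8a1a) and 1 higher (atp2a2b). Among all genes tested, 28.3% passed, 12.1% lower and 16.2% higher. The median change was −0.28 on the log2 scale over the members and 0.07 over all genes.

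For the pump that refills the store, atp2a2a (ENSDARG00000029439, chr8:11687254-11744994, GRCz11, plus strand), uninjured ventricles ranged from 692 to 1938 CPM with a median of 1240. At 1 dpci the range was 370 to 1115 CPM with a median of 748. All 7 strains were lower at 1 dpci, without overlap between fish in 6 of them, and 9 of the 19 injured ventricles lay below the lowest uninjured one. The gene fell by 0.85 on the log2 scale (SE 0.12, adjusted p = 6.1e-08, edgeR).

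The release channel ryr2b (ENSDARG00000003706, chr17:20009132-20118244, minus strand) ranged from 261 to 532 CPM in uninjured fish, with a median of 358. At 1 dpci it ranged from 80.0 to 390 CPM, with a median of 187. At 1 dpci 14 of 19 ventricles lay below every uninjured one, more than for any other member, and 5 strains showed no overlap. It fell by 0.94 on the log2 scale (SE 0.13, adjusted p = 1.1e-07, edgeR).

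Inside the store, casq2 (ENSDARG00000008982, chr9:33097289-33107237, minus strand), which encodes cardiac calsequestrin, ranged from 109 to 729 CPM before injury and from 82.0 to 558 CPM at 1 dpci, with medians of 291 and 229. The stages overlapped widely, but 6 strains were lower at 1 dpci and 4 of them had no overlap between fish. It fell by 0.57 on the log2 scale (SE 0.14, adjusted p = 9.8e-04, edgeR).

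The sodium-calcium exchanger slc8a1a (ENSDARG00000013422, chr11:30535943-30612166, minus strand) ranged from 245 to 632 CPM in uninjured ventricles and from 171 to 358 CPM at 1 dpci, with medians of 353 and 262. It was lower in all 7 strains, with no overlap in 4. Its decrease of −0.50 on the log2 scale (SE 0.10, adjusted p = 5.7e-05, edgeR) was smaller than those of the pump and the release channel.

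The second SERCA2 copy, atp2a2b (ENSDARG00000005122, chr21:17051478-17108649, plus strand), went the other way. Uninjured ventricles held 2.40 to 20.5 CPM (median 6.67) and ventricles at 1 dpci 4.75 to 32.6 CPM (median 18.6). It was higher in 6 strains, without overlap in 5, and TU was the exception. The gene rose 2.26-fold (log2 change 1.17, SE 0.15, adjusted p = 1.2e-08, edgeR). It is a low gene, with 7 to 96 counts per uninjured library and 23 to 201 at 1 dpci.

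Members at the cell surface other than the exchanger did not pass the test. The L-type channel cacna1c (ENSDARG00000008398, chr4:20318127-20474972, plus strand) had medians of 7.72 and 6.82 CPM and a log2 change of −0.27 (SE 0.15, adjusted p = 0.185, edgeR). The cardiac sodium channel scn5lab (ENSDARG00000102312, chr24:40905100-41143256, plus strand) had medians of 31.2 and 24.3 CPM, was lower in all 7 strains with overlap in each, and showed −0.28 (SE 0.15, adjusted p = 0.188). Without 1 KCL fish at 1 dpci, scn5lab passed. The sodium-potassium pump subunit atp1a1a.1 (ENSDARG00000002791, chr1:1712140-1793371, plus strand) had medians of 308 and 335 CPM and a change of 0.06 (SE 0.09, adjusted p = 0.820), and its strains went both ways. The parvalbumin pvalb2 (ENSDARG00000002768, chr12:17710425-17712498, minus strand) had 3 counts over all uninjured libraries and 5 over all libraries at 1 dpci.

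These calls depended on one choice of model. The study itself used DESeq2 with RUVg for its differential expression. With 1 factor of unwanted variation removed (RUVg in DESeq2), 0 of the 9 members passed here or from 1 to 7 dpci. The direction turned in 6 and 5 members, for example to 0.34 for atp2a2a and −0.13 for atp2a2b at 1 dpci. That factor itself held the stages, with 76.7% of its variance between them. Its medians were −0.109, 0.147 and −0.0426 in uninjured, 1 dpci and 7 dpci libraries. With the factor, the genes called dropped from 4875 to 103 at 1 dpci, and from 4016 to 164 between 1 and 7 dpci. With so few genes called, 0 of 9 says little about the members. DESeq2 without the factor, other scalings and the 5 strains without NA and TU also gave 5 members called at 1 dpci, in the last case against 25.1% of all genes.

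**Figure D2:**
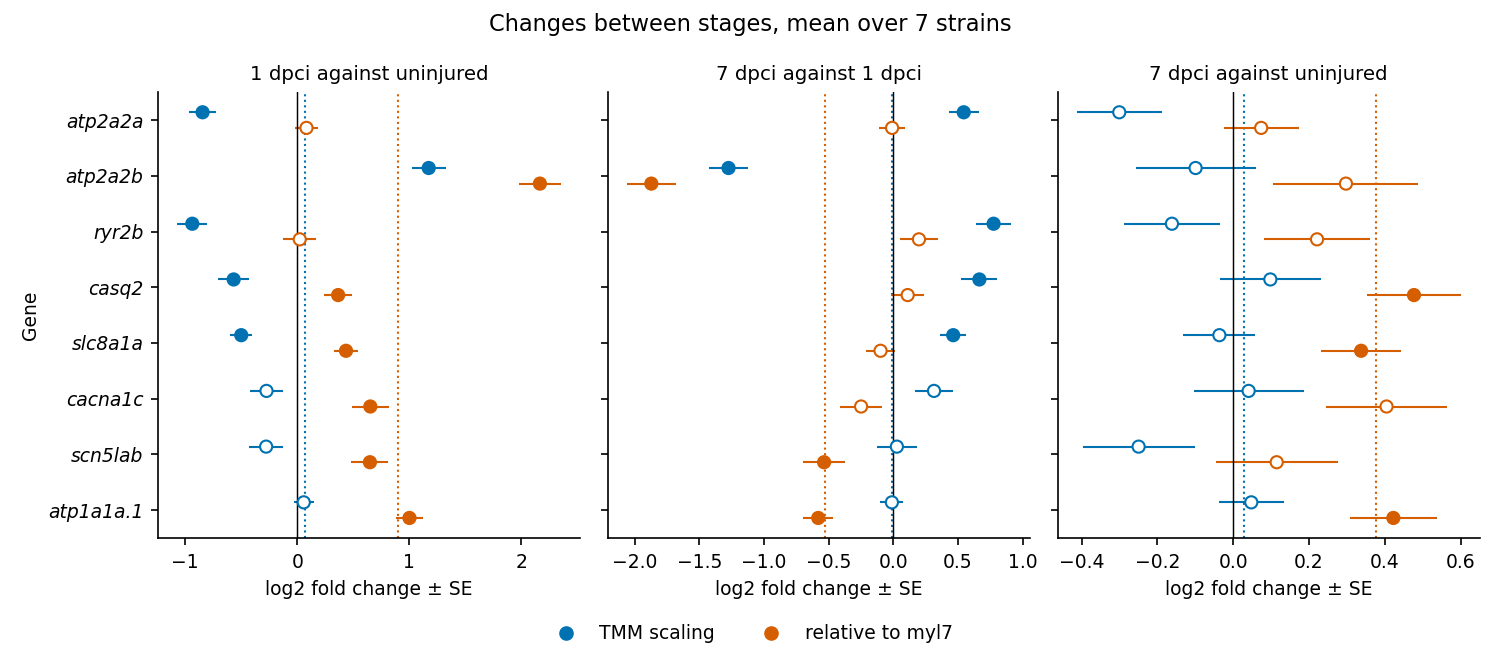
Log2 change of 8 members in the 3 stage comparisons, averaged over the strains, on the CPM scale (TMM scaling) and relative to myl7, with error bars of 1 SE, filled points where the adjusted p is below 0.05 and dotted lines at the median of all genes on each scale. At 1 dpci atp2a2a and ryr2b lie at −0.85 and −0.94 on the CPM scale and at 0.08 and 0.02 relative to myl7, and atp2a2b is the highest member on both scales (1.17 and 2.17).

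The same change was then set against myl7, by using the myl7 count of each library as its size. Neither the pump nor the release channel passed on this scale, where the difference was 0.08 for atp2a2a (SE 0.10, adjusted p = 0.597, edgeR) and 0.02 for ryr2b (SE 0.15, adjusted p = 1.0), each higher in 4 strains and lower in 3. For ryr2b the strains spread widely, from 44.2 to 86.3 counts per 1000 myl7 counts in NA and from 49.3 to 26.6 in TU. Per 1000 myl7 counts, atp2a2a had medians of 182 in uninjured fish and 179 at 1 dpci, and ryr2b of 52.8 and 68.5. On this scale 6 of the 9 members were higher, but 57.9% of all genes were higher too and 0.533% lower (58.4% in all), and the median was 0.44 over the members and 0.90 over all genes.

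Apart from pvalb2, which had hardly any counts at these stages, the other members were higher relative to myl7. The store buffer casq2 gained 0.37 on the log2 scale (SE 0.13, adjusted p = 0.011), a call lost without NA and TU (0.29, adjusted p = 0.094) and without 1 SAT fish at 1 dpci, and the exchanger slc8a1a 0.44 (SE 0.11, adjusted p = 5.1e-04). For the channels cacna1c and scn5lab the gain was 0.65 each (SE 0.16 each, adjusted p = 5.3e-04 and 5.8e-04). The pump subunit atp1a1a.1 gained 1.00 (SE 0.12, adjusted p = 1.5e-10), near the median of all genes, and atp2a2b 2.17 (SE 0.19, adjusted p = 1.3e-14), a 4.49-fold rise and the only one well beyond that median. The order depended in part on the reference: against the summed cardiomyocyte markers, ryr2b fell by 0.32 (adjusted p = 0.021), atp2a2a stood at −0.23 (adjusted p = 0.058), and casq2, slc8a1a and cacna1c no longer passed.

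From 1 to 7 dpci most of these changes ran back. Of the 9 members, 6 passed, 5 higher (atp2a2a, ryr2b, casq2, slc8a1a and pvalb2) and 1 lower (atp2a2b), against 22.9% of all genes, 10.5% higher and 12.4% lower. The call of pvalb2 is limited, because this gene entered the test only through its level at 7 dpci. The median change was 0.46 over the members and −0.01 over all genes. Both comparisons use the 1 dpci fish, so a high or low value there moves them in opposite directions.

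The pump atp2a2a ranged from 569 to 1681 CPM at 7 dpci, with a median of 1043, and was higher than at 1 dpci in all 7 strains, with 3 free of overlap (log2 change 0.55, SE 0.12, adjusted p = 2.8e-04, edgeR). The channel ryr2b ranged from 196 to 501 CPM, with a median of 329, and rose by 0.78 (SE 0.13, adjusted p = 8.6e-06), with 5 strains free of overlap. For casq2 the range was 93.9 to 784 CPM with a median of 346, and for slc8a1a 222 to 613 CPM with a median of 364. These rose by 0.67 (SE 0.14, adjusted p = 1.8e-04) and 0.46 (SE 0.10, adjusted p = 2.5e-04) and were higher in 6 strains each, and 11 of 21 ventricles at 7 dpci held more slc8a1a than any at 1 dpci. In contrast, atp2a2b ranged from 1.50 to 19.5 CPM with a median of 6.69, lower than at 1 dpci in all 7 strains, and fell by 1.27 (SE 0.15, adjusted p = 3.2e-09). No test was passed by cacna1c (0.32, adjusted p = 0.129), scn5lab (0.03, adjusted p = 0.9999) or atp1a1a.1 (−0.01, adjusted p = 0.9999).

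Relative to myl7, which rose by 0.55 over this interval, atp2a2a (−0.01), ryr2b (0.20), casq2 (0.11), slc8a1a (−0.10) and cacna1c (−0.25) did not pass. The members that passed were atp2a2b, which fell by 1.87 (adjusted p = 8.1e-12, edgeR), atp1a1a.1, which fell by 0.58 (adjusted p = 5.5e-05), scn5lab, which fell by 0.53 (adjusted p = 0.0069), and pvalb2, which rose. They were 4 of 9, pvalb2 with the limit given above, against 40.6% of all genes and a median of all genes of −0.53.

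At 7 dpci against uninjured fish, only pvalb2 passed, 1 of 9 against 6.16% of all genes. This gene was tested only because of its level at 7 dpci, so the count says little about the members. The changes of the other 8 members lay between −0.30 and 0.10. The most negative was atp2a2a at −0.30 (SE 0.11, adjusted p = 0.105, edgeR), beside a fall of myl7 by 0.38 (SE 0.07, adjusted p = 4.8e-05). Leaving out 1 AB or 1 SAT fish at 7 dpci brought atp2a2a past the threshold, at −0.35 in the most negative case. A value that misses the threshold does not show that the level had returned. Relative to myl7, casq2 was higher by 0.48 (adjusted p = 0.0035), atp1a1a.1 by 0.42 (adjusted p = 0.0052) and slc8a1a by 0.34 (adjusted p = 0.016), which with pvalb2 made 4 of 9, against 23.4% of all genes. These 3 genes no longer passed in the 5 strains without NA and TU, where the count was 1, against 17.6% of all genes.

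The opposite course of the SERCA2 copies was followed as the share of atp2a2b in the summed level of both, a quantity that does not depend on the library size. In uninjured ventricles atp2a2b made up 0.124% to 1.63% of the sum, with a median of 0.544%. At 1 dpci it made up 0.425% to 5.57% with a median of 2.5%, and at 7 dpci 0.137% to 2.08% with a median of 0.712%. The share was higher at 1 dpci in all 7 strains, without overlap in 6, TU being the exception, and 15 of the 19 ventricles at 1 dpci lay above every uninjured one. The ratio of atp2a2a to atp2a2b thus had a median of 183 before injury, 39.05 at 1 dpci and 139 at 7 dpci.

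**Figure D3:**
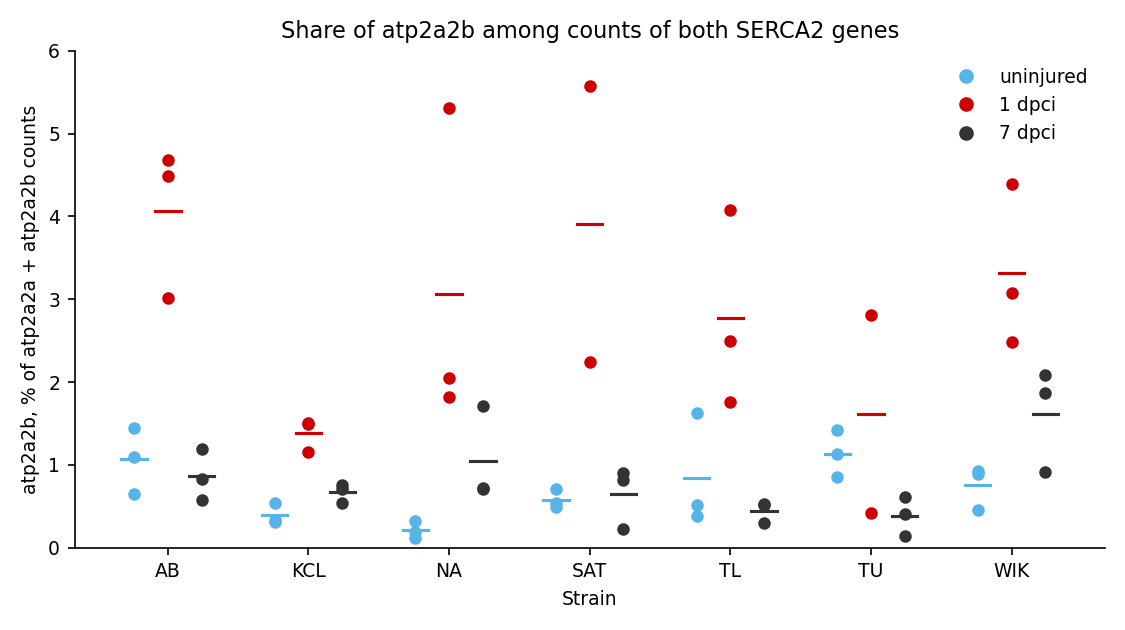
Share of atp2a2b in the summed atp2a2a and atp2a2b level (percent, vertical axis) in each ventricle by strain and stage; lines mark group means. The 1 dpci groups lie highest in every strain, from 1.39% (SD 0.202, n = 3) in KCL to 4.06% (SD 0.909, n = 3) in AB, and atp2a2a remains the main copy in every ventricle.

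The ratio of atp2a2a to atp2a2b was 4.14-fold lower at 1 dpci than in uninjured fish, averaged over strains (log2 change −2.05), and 3.61-fold higher at 7 dpci than at 1 dpci (1.85). In a two-sided permutation test of stage labels within strains with 100000 draws, both gave p = 1e-05, the smallest this test can give (adjusted p = 1.5e-05 over 3 tests). At 7 dpci against uninjured the change was −0.20 (permutation p = 0.487). Leaving out each fish in turn moved the first value between −2.24 and −1.85 and the second between 1.66 and 2.05. Of the 10 leukocyte markers, 8 rose at 1 dpci and 0 fell, where 16.2% of all genes were higher and 12.1% lower. The part of these markers in the change of the ratio was not tested. The atrial myosin gene myh6 passed the test of strain by stage (adjusted p = 0.033, edgeR), where 3.77% of all genes passed. Without NA and TU, whose strain names are in doubt, 0.0651% of all genes passed this test, and the value of myh6 there is not given. From uninjured to 1 dpci its mean went from 171 to 268 CPM in AB, from 326 to 464 CPM in TL and from 172 to 278 CPM in WIK, but from 327 to 30.4 CPM in NA, from 170 to 117 CPM in SAT, from 127 to 62.95 CPM in TU and from 84.8 to 74.4 CPM in KCL. Over all strains the median of myh6 was higher at 1 dpci than in uninjured fish (214 against 165 CPM). The other atrial markers had lower medians at 1 dpci, smtnl1 14.6 against 20.2 CPM and nr2f1a 1.79 against 1.92 CPM, and are not given by strain. The part of myh6 in the change of the ratio was not tested either.

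The strains were compared next, at each stage. Among the 9 members, casq2 was the one that differed at all 3 stages. In uninjured fish casq2 (adjusted p = 1.4e-05) and atp2a2a (0.036) passed edgeR's F-test over the 7 strains, 2 of 9 against 13.1% of all genes. At 1 dpci casq2 alone passed (8.3e-05), 1 of 9 against 11.4%, and at 7 dpci casq2 (8.8e-06) and atp2a2b (0.041), 2 of 9 against 13.5%. Leaving out any 1 fish kept casq2 called at each stage, with adjusted p of at most 5.1e-04, whereas the calls of atp2a2a and atp2a2b were lost without any of several fish and without the 6 libraries with differing labels (adjusted p = 0.090 and 0.134). Without NA and TU, casq2 alone passed at each stage (adjusted p = 3.3e-05, 0.0012 and 0.0020), 1 of 9 against 9.19%, 7.37% and 5.96% of all genes. Without the filter on low counts, 4 of 9 passed at 1 dpci and 4 at 7 dpci, against 11.8% and 12.7% of all genes. In uninjured fish atp2a2b (adjusted p = 0.0059) passed in that fit besides atp2a2a and casq2, where 12.1% of all genes did.

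In uninjured ventricles AB fish held 109, 149 and 210 CPM of casq2, and TL fish 137, 166 and 210 CPM. The WIK fish held 605, 665 and 729 CPM, above every other uninjured ventricle. Between them in order of the mean stood SAT (123, 246 and 291 CPM), KCL (222, 240 and 335 CPM), NA (312, 434 and 467 CPM) and TU (309, 549 and 599 CPM). Each strain overlapped the next in this order except TU and WIK. Against the mean of the other 6 strains, WIK was higher by 1.36 on the log2 scale (SE 0.24, adjusted p = 1.8e-04, edgeR), AB was lower by −1.08 (SE 0.29, adjusted p = 0.040) and TL by −0.93 (SE 0.29, adjusted p = 0.041).

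At 1 dpci AB (82.0, 103.6 and 108 CPM) and TL (83.6, 110 and 111 CPM) were again lowest. SAT followed with 88.9 and 229 CPM, WIK with 220, 276 and 285 CPM, TU with 265 and 287 CPM and KCL with 285, 291 and 311 CPM. The highest mean was that of NA, at 162, 437 and 558 CPM, with 1 fish far below the others. AB (−1.20, SE 0.30, adjusted p = 0.025), TL (−1.14, SE 0.30, adjusted p = 0.019) and NA (1.102, SE 0.25, adjusted p = 0.0059) differed from the other 6. WIK, highest before injury, no longer stood out, and within WIK casq2 fell by 1.36 at 1 dpci (SE 0.36, adjusted p = 0.013). The test of strain by stage did not show that this course differed between strains for casq2 (adjusted p = 0.571). Without the filter on low counts casq2 passed it (adjusted p = 0.010, edgeR), where 8.65% of all genes passed.

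At 7 dpci AB held 130, 134 and 184 CPM and TL 171, 182 and 194 CPM, while NA held 572, 622 and 784 CPM. SAT (93.9, 260 and 346 CPM), KCL (177, 261 and 415 CPM), WIK (379, 557 and 619 CPM) and TU (457, 547 and 592 CPM) lay between them. Every neighbouring pair overlapped. NA (1.23, SE 0.24, adjusted p = 5.7e-04) and TU (0.87, SE 0.25, adjusted p = 0.036) were higher than the other 6, and AB was lower (−1.27, SE 0.30, adjusted p = 0.011).

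**Figure D4:**
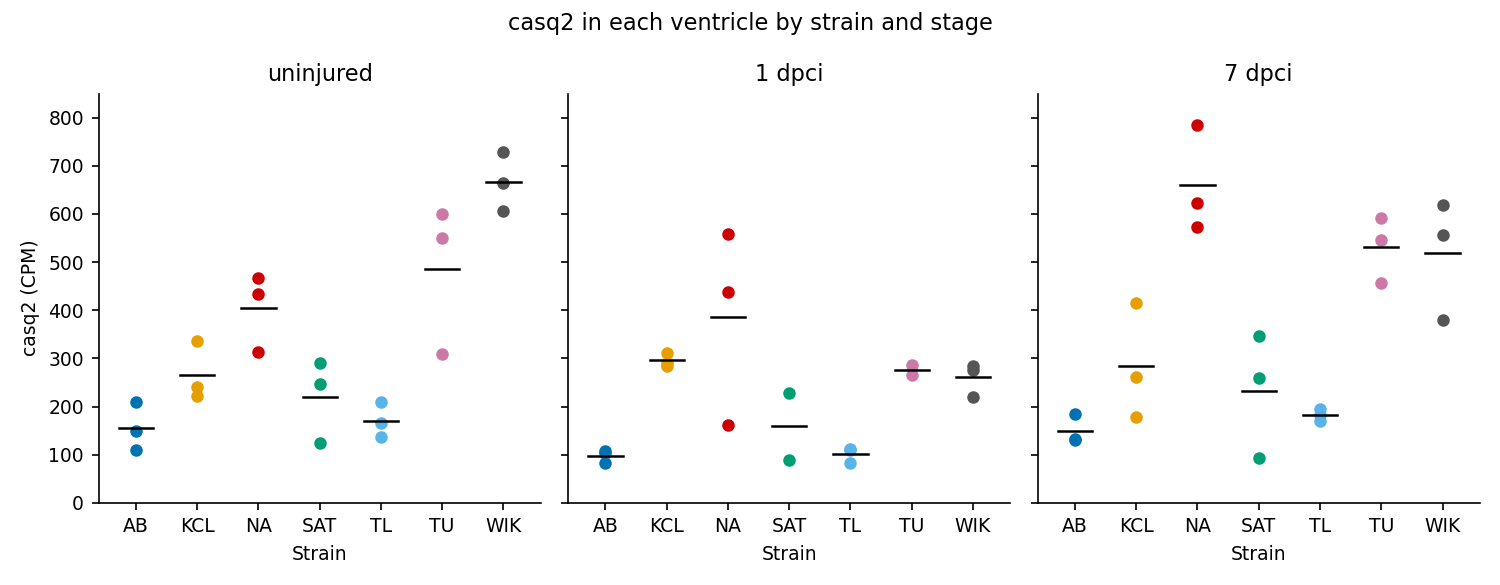
Level of casq2 in CPM (linear axis from 0) in each ventricle by strain, 1 panel per stage; horizontal lines are group means. AB and TL have the lowest means at each stage, 156 and 171 CPM uninjured and 149 and 182 CPM at 7 dpci, and the highest mean is that of WIK uninjured (666 CPM) and of NA at 1 and 7 dpci (386 and 659 CPM).

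The order of the strains in casq2 was not that of myl7. Per 1000 myl7 counts, uninjured AB held 23.2 ± 4.28 and WIK 83.1 ± 11.4 (SD, n = 3 each), and at 7 dpci AB held 28.01 ± 2.96 and NA 105 ± 20.6. Uninjured TL and SAT were lower in myl7 than the other 6 strains (−0.52 and −0.50 on the log2 scale), and TU was higher at 1 dpci (0.59), but neither AB, WIK nor NA differed in myl7 at any stage in that test. NA and TU, whose strain names are in doubt at uninjured or at 7 dpci, both lay in the upper part of the casq2 range before injury, with means of 405 and 486 CPM.

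Over all 21 comparisons of a strain with the other 6, 11 of 189 member tests passed, and 9 of them were casq2, of which 7 were beyond 2-fold. In uninjured fish the share of all genes that passed was 1.45% in AB, 6% in TL and 3.77% in WIK. At 1 dpci it was 1.24% in AB, 2.67% in TL and 2.75% in NA, and at 7 dpci 1.56% in AB, 5.77% in NA and 3.55% in TU. Apart from casq2, uninjured TL was higher in atp1a1a.1 (0.58, SE 0.17, adjusted p = 0.024, edgeR), and NA at 7 dpci was higher in atp2a2b (0.89, SE 0.28, adjusted p = 0.047). Set against the other 4 strains without NA and TU, WIK stayed higher in casq2 when uninjured (1.75, SE 0.24, adjusted p = 6.2e-06) and was also higher at 7 dpci (1.33, SE 0.25, adjusted p = 7.9e-04), and KCL was higher at 1 dpci (1.05, SE 0.26, adjusted p = 0.013). AB and TL no longer passed at any stage, with casq2 values from −0.94 to −0.55 (adjusted p from 0.112 to 0.413), nor did uninjured TL in atp1a1a.1 (0.53, adjusted p = 0.065). Across the 8 members other than pvalb2, 140 of 144 pairs of neighbouring strains in the order of means overlapped. Groups of 2 or 3 fish sorted by their means are apt to overlap for any gene. The share over all genes is not given here, so this count describes the spread only.

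The strain difference in atp2a2a before injury ran from TU (857 ± 136 CPM) through SAT (1007 ± 128), WIK (1067 ± 312), AB (1103 ± 356), TL (1370 ± 312) and KCL (1586 ± 284) to NA (1867 ± 107 CPM; SD, n = 3 each). Neighbours in this order overlapped, but the fish of TU and NA did not. The extremes are the strains whose uninjured libraries resemble each other's 7 dpci libraries, and no strain passed against the other 6.

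NA and SAT at 7 dpci were compared with the thresholds of the study, more than 1.5-fold with adjusted p under 0.1. Of the 9 members, 2 passed, both higher in NA, against 5.58% of all genes in either direction and 3.58% higher. In casq2, NA fish (572, 622 and 784 CPM) lay above SAT fish (93.9, 260 and 346 CPM), a 2.83-fold difference (log2 1.50, SE 0.36, adjusted p = 0.0062, edgeR). In atp2a2b, NA fish held 7.65, 8.32 and 19.5 CPM and SAT fish 2.90, 6.01 and 6.69 CPM (log2 1.19, SE 0.40, adjusted p = 0.087). The reference myl7 was itself higher in NA by 0.53 (adjusted p = 0.079). Without 1 SAT fish, the lowest in casq2, neither member passed (casq2 1.12). This fish is titled 7 dpci but its time label gives 1 day. It is the only fish of these groups among the 6 libraries with differing labels. Leaving out those 6 therefore removes the same fish from this comparison, and again neither member passed (casq2 1.12).

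Within single strains, 19 of 189 member tests of a stage change passed, against 0.172% to 11.1% of all genes per comparison. At 1 dpci against uninjured fish, NA had 3 members called, with atp2a2a at −1.53 (SE 0.30, adjusted p = 3.0e-04, edgeR), slc8a1a lower and atp2a2b higher, against 11.1% of all genes. WIK also had 3 called, casq2, atp2a2a and slc8a1a, all lower, against 6.23%. A single member passed in each of 4 other strains: atp2a2a in AB (lower, against 6.1% of all genes), ryr2b in KCL (−1.43, SE 0.34, adjusted p = 0.0062, against 5.57%), ryr2b in TU (−1.56, SE 0.40, adjusted p = 0.036, against 0.965%) and atp2a2b in SAT (higher, against 2.94%). All of these had the direction of the mean over strains.

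From 1 to 7 dpci, atp2a2b fell in AB, where pvalb2 rose (3.72% of all genes called), in SAT (0.941%) and in TL (3.91%), and ryr2b and slc8a1a rose in TU (1.63%). At 7 dpci against uninjured fish, pvalb2 was higher in KCL (1.3% of all genes called) and TU (3.37%), and atp2a2b in NA (3.08%).

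For atp2a2b, the stage course differed between strains (strain by stage, adjusted p = 0.0356), 1 of 9 members against 3.77% of all genes. NA fish held 2.40, 3.29 and 6.15 CPM before injury, 14.7, 16.4 and 20.7 CPM at 1 dpci and 7.65, 8.32 and 19.5 CPM at 7 dpci. SAT fish held 4.78, 6.29 and 6.43 CPM, then 18.6 and 25.3 CPM, then 2.90, 6.01 and 6.69 CPM. TU fish held 8.48, 8.72 and 11.9 CPM, then 4.75 and 12.5 CPM, then 1.50, 4.71 and 6.53 CPM. In NA the gene rose by 2.12 at 1 dpci (adjusted p = 3.6e-04, edgeR) and was still higher than before injury at 7 dpci (1.58, adjusted p = 0.027), and in SAT it rose by 1.90 (adjusted p = 0.0064) and fell again by 2.07 (adjusted p = 0.0054). In TU the values were −0.16 (adjusted p = 0.98) and −1.03 (adjusted p = 0.32). The call of strain by stage rested on NA and TU: without them the adjusted p was 0.644, and 0.0651% of all genes passed. Without the 6 libraries with differing labels the adjusted p of atp2a2b was 0.101. Without the filter on low counts, 4 members passed in strain by stage, atp2a2b, atp2a2a and casq2 among them, against 8.65% of all genes.

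The parvalbumin gene pvalb2 stood apart from all other members. It had a count in 2 of 21 uninjured libraries, 3 of 19 at 1 dpci and 20 of 21 at 7 dpci, with sums of 3, 5 and 1389 counts. At 7 dpci AB ventricles held 454, 9 and 7 counts, KCL 15, 4 and 382, TU 130, 3 and 94, and TL 74, 6 and 8. WIK held 55, 1 and 17, SAT 3, 55 and 60, and NA 8, 4 and 0. Fish of the same strain thus differed by more than 10-fold in most strains, and 2 ventricles, 1 AB and 1 KCL, held most of the counts. The rise passed against 1 dpci (adjusted p = 3.6e-07, edgeR) and against uninjured fish (adjusted p = 2.7e-06), and no fold change is given because most libraries of the other stages had no count. The highest level was 0.706 CPM in uninjured fish and 0.344 CPM at 1 dpci. The gene thus passed the filter only through 7 dpci, where it is high, and these tests are no separate support for the rise.

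Other genes of fast skeletal muscle appeared with it. Over the 21 libraries at 7 dpci, pvalb1, a second parvalbumin, summed to 2575 counts, the fast myosin light chain mylpfa to 3235, the actin gene actc1b to 2031, the fast troponin C gene tnnc2 to 670 and the myosin heavy chain myhz2 to 725, while in uninjured libraries pvalb1 summed to 12 and mylpfa to 14 counts. The summed level of 17 skeletal muscle markers ran from 4.08 to 29.03 CPM in uninjured fish (median 8.39), from 2.07 to 21.2 CPM at 1 dpci (median 6.65) and from 10.6 to 1619 CPM at 7 dpci (median 47.6). Of these markers, 4 had no count in any uninjured library, 2 none at 1 dpci and 0 none at 7 dpci. The creatine kinase gene ckma is left out of this sum because it was high in every ventricle, with a median of 5722 counts in uninjured fish. At 7 dpci against uninjured fish 7 of the 18 listed markers rose, where 4.46% of all genes were higher and 1.71% lower. The 4 markers without a count in uninjured fish passed the filter only through injured hearts. Setting the markers against all genes is therefore no test of the rise. In contrast, ckma fell by 0.58 (adjusted p = 5.6e-06, edgeR). The sum of all 18 with ckma had medians of 1623 CPM in uninjured fish, 764 CPM at 1 dpci and 1110 CPM at 7 dpci.

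Over the 21 ventricles at 7 dpci, log2 pvalb2 followed the mean log2 level of the full list of skeletal muscle markers, with Pearson r = 0.945 and Spearman rho = 0.923 (two-sided permutation p = 1e-05 each, the smallest that 100000 draws can give, adjusted p = 1e-05 over the 2 coefficients). Without the 2 ventricles farthest from the median of the markers, r was 0.943, and with group means removed it was 0.946. The AB and KCL ventricles highest in pvalb2 were also the highest in the summed markers, at 1619 and 478 CPM. Without both, pvalb2 still passed at 7 dpci, and the counts of members called in the 3 stage comparisons were the same. The filter on low counts was kept from all libraries, and pvalb2 had passed it only through 7 dpci. This call is therefore no separate support for the rise. The part of other skeletal muscle RNA in the rise of pvalb2 was not tested.

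**Figure D5:**
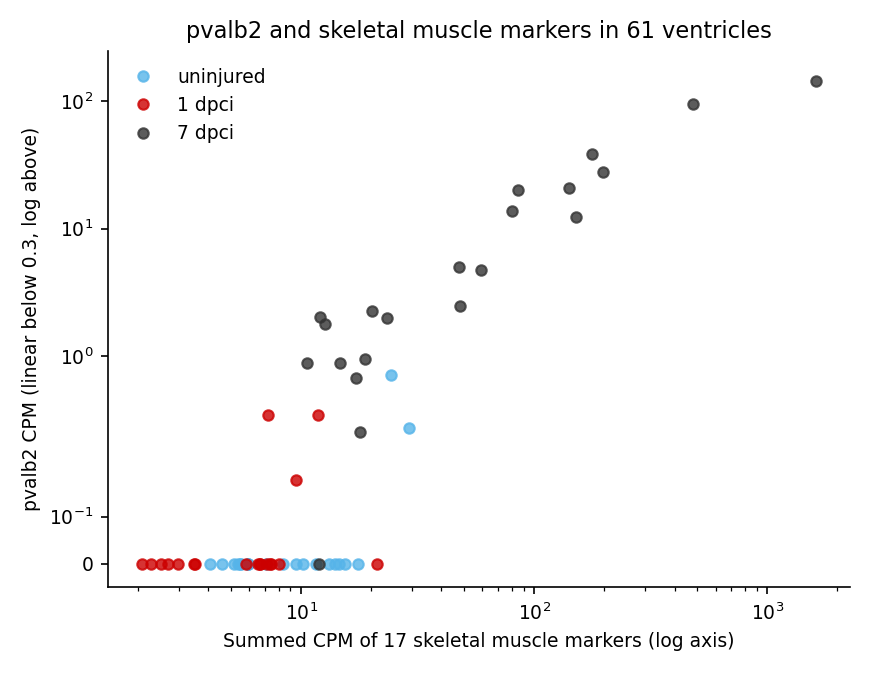
Level of pvalb2 in CPM (vertical axis, linear near 0 and log above) against the summed CPM of 17 skeletal muscle markers (log axis) in each ventricle, coloured by stage. Both are highest in a few 7 dpci ventricles, up to 1619 CPM of markers and 144 CPM of pvalb2, and the uninjured and 1 dpci ventricles lie at or near 0 on the pvalb2 axis.

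The wider set of calcium and sodium handling genes was described from a list of 138 symbols, of which 127 were found and 99 gene IDs were tested. At 1 dpci 28 were lower and 13 higher (41 of 99), with a median of −0.10 beside 0.07 over all genes, of which 12.1% were lower and 16.2% higher. From 1 to 7 dpci 24 were higher and 9 lower, where 10.5% of all genes were higher and 12.4% lower. The median there was 0.31 beside −0.01. At 7 dpci against uninjured 8 were higher and 5 lower, where 4.46% of all genes were higher and 1.71% lower. The genes higher at 7 dpci in both comparisons include pvalb1, pvalb3 and atp2a1l, each with a median of 0 CPM at the other stages. These counts thus also hold genes best known from skeletal muscle. Relative to myl7 at 1 dpci, 46 were higher and 2 lower, where 57.9% of all genes were higher and 0.533% lower.

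Among the genes with the largest falls at 1 dpci, several act in the sarcoplasmic reticulum. The histidine-rich calcium-binding protein gene hrc went from a median of 98.7 to 30.9 CPM (−1.68 on the log2 scale, adjusted p = 6.8e-14, edgeR) and remained lower relative to myl7 (−0.77, adjusted p = 1.8e-05). Another calsequestrin gene, casq1b, went from 29.1 to 12.7 CPM (−1.34, adjusted p = 4.8e-17, and relative to myl7 −0.41, adjusted p = 0.0014). The gene tmem38a, which encodes a cation channel of the store, went from 14.9 to 6.62 CPM (−1.05, adjusted p = 2.2e-07, and relative to myl7 −0.14, adjusted p = 0.475). The fourth was micu3b, a regulator of the mitochondrial calcium uniporter, which went from 4.44 to 1.63 CPM (−1.36, adjusted p = 1.1e-05; relative to myl7 −0.46, adjusted p = 0.099) and rose by 1.46 from 1 to 7 dpci.

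The largest rises at 1 dpci, with adjusted p of at most 2.4e-04, were those of asph, which in mammals encodes aspartate hydroxylase and junctional proteins of the store (from 9.59 to 21.4 CPM, 1.42), the calmodulin gene calm3b (from 15.2 to 36.1 CPM, 1.29), the plasma membrane calcium pump atp2b1a (from 9.86 to 21.9 CPM, 1.096) and the store calcium sensor stim1a (from 3.45 to 7.25 CPM, 0.89). The first 3 fell again from 1 to 7 dpci, by 1.05, 1.28 and 1.00, as did the pacemaker channel hcn2b by 1.03. Medians at 7 dpci were 11.8 CPM for asph, 15.5 CPM for calm3b, 9.49 CPM for atp2b1a and 12.4 CPM for hcn2b. The summed leukocyte markers given above also had their highest median at 1 dpci. Whether these courses are related was not tested. At 7 dpci against uninjured, the largest falls were those of the sodium pump subunit atp1b3b (−0.69, adjusted p = 6.9e-04), hcn2b (−0.68), the calmodulin kinase camk2a (−0.60) and casq1b (−0.50). The rises were led by pvalb1, pvalb3 and the skeletal-type calcium pump gene atp2a1l, all with a median of 0 CPM in uninjured fish and reaching 440, 127 and 154 CPM in 1 ventricle at 7 dpci, and then by the plasma membrane pump atp2b4 (from 37.6 to 46.9 CPM, 0.30, adjusted p = 0.045).

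Phospholamban, the inhibitor of the SERCA2 pumps, was not on that list and was chosen with these data in view. Its gene pln ranged from 722 to 2592 CPM in uninjured fish, from 392 to 1613 CPM at 1 dpci and from 523 to 1848 CPM at 7 dpci, with medians of 1634, 694 and 1098. It was lower at 1 dpci in all 7 strains and fell by 0.94 (SE 0.11, adjusted p = 1.7e-09, edgeR). Relative to myl7 the change was −0.01 (SE 0.11, adjusted p = 1.0), close to that of its target atp2a2a. At 7 dpci pln was lower than in uninjured fish in all 7 strains and passed (−0.50, adjusted p = 0.0012, edgeR). Relative to myl7, pln did not pass (−0.12, adjusted p = 0.530). The gene atp2a2a was lower in 6 strains at 7 dpci and missed the threshold. The difference between the genes was not tested.

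Across the 21 group means of strain and stage, the members differed in how closely they followed myl7. Pearson r of log2 CPM with myl7 was 0.68 for slc8a1a, 0.65 for atp2a2a, 0.60 for casq2 and 0.45 for ryr2b, near 0 for cacna1c (0.13), scn5lab (0.08) and pvalb2 (0.07), −0.27 for atp1a1a.1 and −0.67 for atp2a2b. Within the list, atp2a2a was closest to slc8a1a (r = 0.80) and opposite to atp2a2b (r = −0.70). Among 3480 genes with a mean of at least 10 CPM, the gene with the most similar course was usp28 for atp2a2a (r = 0.83), hrc for slc8a1a (0.88), znf106a for ryr2b (0.84), pcyt1aa for casq2 (0.86) and sptan1 for cacna1c (0.79). It was tspan13b for scn5lab (0.72), slmapa for atp1a1a.1 (0.81), pvalb1 for pvalb2 (0.99) and sele, which encodes the endothelial adhesion molecule E-selectin, for atp2a2b (0.89). All these points share libraries and scaling, and the values are descriptions of 21 means only.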

How the data were processed

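Single-ventricle libraries were made by the authors with the QuantSeq 3′ kit (FWD), trimmed with Trim Galore 0.6.4 and aligned and counted with STAR 2.7.6a on GRCz11 (demultiplexing with bcl2fastq 2.20.0). The first deposited table holds raw counts for 32520 genes. The second holds normalized log2 values deposited by the authors for 16890 genes, exactly those that reached 1 CPM in 1 or more libraries. It was used to choose the members and for their positions. In 1 alternative, limma was run on 2 to the power of its values for the stage comparisons. For their own tests the authors used DESeq2 with RUVg, and edgeR for NA against SAT.

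Counts were tested with edgeR 4.0.16 in R 4.3.3 (TMM, trended dispersion, glmQLFit, 1 mean per strain and stage over 61 libraries, with the spread estimated jointly), with Benjamini-Hochberg adjustment over 16890 genes. Stage comparisons average the change within the 7 strains. CPM are TMM-scaled, counts in libraries of this depth limit precision most for atp2a2b, cacna1c and pvalb2, and p-values treat fish as independent samples. The ratio of SERCA2 copies used a pseudocount of 0.5 counts, and the correlation of pvalb2 used 1 CPM. This correlation was run at 7 dpci alone, and the ryr2a to ryr2b ratio was not run, since pvalb2 and ryr2a were near 0 elsewhere. Alternatives used DESeq2 1.42.0, limma 3.58.1, other scalings, filters and thresholds, and sets of libraries, including each fish left out in turn. Python 3.11.15, numpy 2.4.6, pandas 2.3.3, scipy 1.17.1 and matplotlib 3.10.9 were used for the rest. Scripts were tested on simulated data.

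The members and gene lists were chosen with earlier results of these data known. Of the wider list, up to 4 called genes per direction with a mean of at least 10 counts are named by the size of their change, of each marker list the 3 highest genes, for each member the gene with the highest r, and any strain in which a member passed. The omission of the 2 libraries highest in skeletal muscle markers, the list without ckma, the tests among strains without NA and TU and the values of pln were added after the data had been seen.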

Additional observations from a re-analysis of the deposited data

Results flagged for a closer look

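The stage course of atp2a2b differed between strains (edgeR F-test on strain by stage, adjusted p = 0.0356). On the log2 scale the change from uninjured to 1 dpci was 2.12 in NA, 1.90 in SAT, 1.16 in WIK, 1.103 in TL, 1.06 in AB, 1.03 in KCL and −0.16 in TU, and from uninjured to 7 dpci it was 1.58 in NA and −1.18 in TU. The adjusted p was 0.644 without NA and TU, 0.101 without the 6 libraries with differing labels, and between 0.010 and 0.093 when each fish was left out in turn. Of all genes, 3.77% passed this test with the 7 strains and 0.0651% without NA and TU.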

How the results depend on the processing

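Over the single-gene values, 345 of 402 alternative values kept their direction and their side of the threshold. With a fold change above 2 as well, 1 of 9 members passed at 1 dpci and 2 from 1 to 7 dpci, against 10.9% and 7.44% of all genes. With 1 RUVg factor, 0 members passed in both, where only 103 and 164 genes were called. That factor turned, at 1 dpci, atp2a2a (0.34), atp2a2b (−0.13), casq2 (0.52), slc8a1a (0.25), cacna1c (0.32) and scn5lab (0.72), from 1 to 7 dpci atp2a2a (−0.36), casq2 (−0.18), slc8a1a (−0.11), cacna1c (−0.14) and scn5lab (−0.74), and at 7 dpci against uninjured slc8a1a (0.15). Without the filter on low counts, 2 members passed at 7 dpci against uninjured (5.25% of all 24170 genes). Among strains 4 each passed at 1 and 7 dpci (11.8% and 12.7% of all genes), and 4 passed in strain by stage (8.65%). Among uninjured strains atp2a2b passed besides atp2a2a and casq2 (12.1% of all genes). In that fit atp1a1a.1 stood at 0.0057 from 1 to 7 dpci. The cause of these differences was not tested. Without the 6 libraries with differing labels, 1 member passed among uninjured strains, 1 among strains at 7 dpci, 0 in strain by stage and 0 in NA against SAT, and atp1a1a.1 (0.0099, 1 to 7 dpci) and slc8a1a (0.018, 7 dpci against uninjured) changed sign. Without NA and TU, 1 member each passed among strains at the 3 stages and 1 relative to myl7 at 7 dpci against uninjured. In strain by stage 0 members passed without them, where 0.0651% of all genes did. Also without NA and TU, scn5lab (−0.035, 1 to 7 dpci), casq2 (−0.030), cacna1c (−0.047) and atp1a1a.1 (−0.017, all at 7 dpci against uninjured) changed sign. Without the 2 libraries highest in skeletal muscle markers, 1 passed among strains at 7 dpci. With the size factors of DESeq2 in edgeR, 1 passed in NA against SAT. With summed cardiomyocyte markers in place of myl7, 1 passed at 7 dpci against uninjured, and atp2a2a (−0.23) and ryr2b (−0.32) at 1 dpci, atp2a2a (0.12) and slc8a1a (0.030) from 1 to 7 dpci and atp2a2a (−0.11) and scn5lab (−0.066) at 7 dpci against uninjured changed sign. No share of all genes is given for fits without the 6 or the 2 libraries, with DESeq2 size factors, with summed markers or without single fish. A loss of calls there cannot be assigned to the members.

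Leaving out each fish in turn gave 1 to 2 members at 7 dpci against uninjured, 1 to 3 among uninjured strains, 1 to 2 among strains at 1 dpci, 1 to 3 among strains at 7 dpci, 0 to 1 in strain by stage and 0 to 2 in NA against SAT. At 1 dpci against uninjured it gave 5 to 6 members, with scn5lab passing without 1 KCL fish. Relative to myl7 it gave 5 to 6 members at 1 dpci and 4 to 5 at 7 dpci, both against uninjured. Values that changed sign were those of scn5lab (−0.029 to 0.13) and atp1a1a.1 (−0.043 to 0.025) from 1 to 7 dpci, atp2a2b (−0.18 to 0.029), slc8a1a (−0.073 to 0.0056) and cacna1c (−0.013 to 0.092) at 7 dpci against uninjured and, relative to myl7, ryr2b at 1 dpci (−0.12 to 0.11) and atp2a2a from 1 to 7 dpci (−0.059 to 0.058); none of these genes had passed in those comparisons. Uninjured fish share replicate numbers between strains, but same-numbered fish did not deviate together (median r 0.0119 for 33 pairs, 0.00167 for 156 others). With the replicate block, fitted in uninjured libraries alone, 3 members and 2406 genes passed, against 2 members and 2312 genes without the block in the same libraries. Likelihood ratio tests in DESeq2 for comparisons of several groups were not run.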
